A study of Rattus norvegicus with 12 samples.

Results

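Aif1, Cd74 and RT1-Da were followed across the right trigeminal ganglia of female Sprague Dawley rats. Aif1 is a macrophage gene, RT1-Da an MHC class II gene and Cd74 the gene of the class II invariant chain. Cd74 and RT1-Da are called the class II pair here. The genes are 3 of the 32545 Ensembl rat genes measured (identifiers ENSRNOG00000000853, ENSRNOG00000018735 and ENSRNOG00000032844 for Aif1, Cd74 and RT1-Da). They were chosen by name as genes of the resident immune cells of the ganglion, with earlier results of these data known. All 3 passed the filter on low values that left 14781 genes to test. Total RNA was sequenced in 12 libraries, 3 for each of 4 groups that carried a hormone capsule for 1 week. Vehicle capsules were 100% cholesterol, and the rest contained estradiol (E2), an ovarian steroid hormone, at 5% (equated in the labels with diestrus), 20% (equated with proestrus) or 40% (called therapeutic). Not given in the sources used here: whether the ovaries had been removed, the age of the rats, and whether each library came from 1 animal. The p-values therefore measure the spread between libraries, which may in part be technical. The series asks how E2 dose alters the response of trigeminal sensory neurons to serotonin.

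In the trigeminal ganglion, resident macrophages lie among the somata of facial and meningeal sensory neurons, their satellite glia and the Schwann cells of their axons. Those macrophages take up debris and can present antigen. MHC class II molecules display peptides from engulfed proteins to helper T cells. The alpha and beta chains assemble in the endoplasmic reticulum with the invariant chain, encoded by Cd74, which blocks the peptide groove and guides the complex to the endosome. RT1-Da encodes an alpha chain of one rat class II molecule (RT1 is the rat MHC). Aif1 encodes Iba1, a calcium- and actin-binding protein widely used to stain macrophages and microglia. Class II genes and Cd74 share a promoter layout, the X and Y boxes, that recruits a common set of factors and the transactivator CIITA. The files do not pair identifiers with names, so other macrophage, class II, T cell, glial or neuronal genes were not analysed here, and the tissue label could not be checked against markers.

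The upstream sequences of the class II pair are shown because both genes are known for this shared layout. They come from RefSeq (rat assembly GRCr8, forward strand, 5′ to 3′), and Aif1 had no entry. Capitals mark matches to the letters GCAAC, which form part of the X1 box, and ATTGG, the core of the Y box (CCAAT when read on the other strand). Positions count upstream from an annotated start that lies inside the RefSeq gene record. The RT1-Da run ends 23 bases and the first Cd74 run 136 bases upstream of that start. The first run is chr20:4515165-4515392 and the second chr18:56526956-56527070, each ending where the RefSeq gene record begins. The third is the 30-base stretch chr18:56527130-56527159 around GCAAC of Cd74, which lies inside the gene record. Its label, X1 stretch, refers to these letters only and does not identify the X1 box of Cd74.
RT1-Da upstream: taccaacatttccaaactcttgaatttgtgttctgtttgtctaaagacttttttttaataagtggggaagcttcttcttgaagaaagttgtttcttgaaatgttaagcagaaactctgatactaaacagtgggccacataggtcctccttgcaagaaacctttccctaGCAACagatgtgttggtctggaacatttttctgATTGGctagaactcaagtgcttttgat
Cd74 upstream: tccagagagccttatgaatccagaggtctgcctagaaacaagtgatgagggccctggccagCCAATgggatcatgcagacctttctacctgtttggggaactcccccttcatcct
Cd74 X1 stretch: acattaGCAACgtgggcggagtgacctgct

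In RT1-Da, GCAAC lay 82 bases and ATTGG 49 bases upstream of the start, with 28 bases between them. In Cd74, GCAAC lay 70 bases upstream of the start used, inside the gene record, and CCAAT 189 bases upstream. These matches were in the reverse order, with 114 bases between them. Whether this GCAAC is the X1 box of Cd74 was not tested. Over the 250 bases before the start, GCAAC or its complement GTTGC occurred in 29.5% of 33469 rat promoters, ATTGG or CCAAT in 34%, and both in 9.79%. Neither gene's window held TGACG, the core of the X2 box (in 18.2% of promoters on either strand), the interferon element GAAANNGAAA (3.41%), the PU.1 core GAGGAAG (10.2%) or the palindromic estrogen element GGTCANNNTGACC (0.0239%). These are matches of letters and were not tested as binding sites.

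Cd74 was the most abundant of the 3. Its unit, FPKM (fragments per kilobase, scaled to depth), is per length and so can be compared between genes. Over the 12 libraries Cd74 had a mean of 29.3 ± 8.22 FPKM (SD, n = 12), RT1-Da 4.09 ± 1.504 and Aif1 3.03 ± 0.777. On the mean of log2(FPKM + 1), Cd74 stood above 78.4% of the tested genes, RT1-Da above 28.4% and Aif1 above 23.2%. The fragments behind each value were recovered from the FPKM values themselves, at 238 to 910 per library for Cd74, 64 to 297 for RT1-Da and 53 to 145 for Aif1, in libraries of 13281981 to 16978830 fragments. Counting error alone gives a coefficient of variation of 4.04% at the mean of Cd74, 8.04% for RT1-Da and 11.1% for Aif1. The observed coefficients of variation over the 12 libraries were 28.1%, 36.8% and 25.7%, each larger than counting error.

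**Figure D1:**
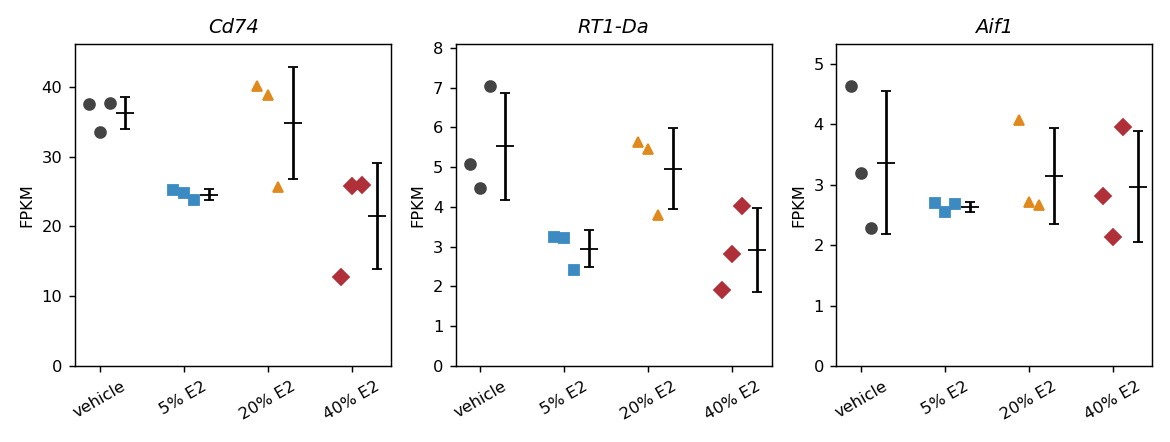
FPKM of Cd74, RT1-Da and Aif1 in each of the 12 libraries (points, 3 per group), with the group mean and SD beside them (bars). The vehicle libraries of Cd74 (33.5 to 37.6 FPKM) lie above all those at 5% E2 (23.7 to 25.2) and at 40% E2 (12.7 to 25.99), while the Aif1 groups overlap.

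Cd74 had its highest mean in vehicle and its lowest at 40% E2. In the vehicle libraries it was at 37.6, 33.5 and 37.6 FPKM. The libraries of the 5% group had 25.2, 24.7 and 23.7 FPKM and those of the 20% group 40.1, 38.8 and 25.6. Values in the 40% group were 12.7, 25.8 and 25.99 FPKM. The libraries at 5% E2 were close to one another and all below vehicle, those at 20% E2 were split between 2 near the vehicle level and 1 near the 5% level, and 1 library at 40% E2 stood far below all others. The group means were 36.2 ± 2.34 FPKM (SD, n = 3) in vehicle, 34.8 ± 8.05 at 20% E2, 24.5 ± 0.740 at 5% E2 and 21.5 ± 7.60 at 40% E2. In that order, vehicle and 20% E2 overlapped, 20% E2 lay above 5% E2 without overlap, and 5% and 40% E2 overlapped.

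RT1-Da, the class II alpha chain, was ordered by group in the same way. It was at 5.07, 4.47 and 7.04 FPKM in vehicle and at 3.24, 3.21 and 2.41 with 5% E2. With 20% E2 it was at 5.64, 5.45 and 3.79 FPKM, and with 40% E2 at 1.91, 2.81 and 4.03. All libraries at 5% and 40% E2 lay below all vehicle libraries, and those at 20% E2 above all those at 5% E2. Its means were 5.53 ± 1.34 FPKM (SD, n = 3) in vehicle, 4.96 ± 1.02 at 20% E2, 2.95 ± 0.471 at 5% E2 and 2.91 ± 1.06 at 40% E2. The library with the least Cd74, 40% E2 replicate 1, also had the least RT1-Da, on 238 and 64 fragments, and its Aif1 of 2.82 FPKM was above the median of 2.70 over the 12 libraries.

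Aif1, the Iba1 gene, showed no separation of the groups. Vehicle libraries had 4.63, 3.19 and 2.27 FPKM of it, and the 5% group 2.69, 2.54 and 2.67. The 20% group had 4.07, 2.71 and 2.67 FPKM and the 40% group 2.82, 2.14 and 3.95. Every pair of groups overlapped, and the vehicle group alone nearly spanned the whole range. The means were 3.36 ± 1.19 FPKM (SD, n = 3) in vehicle, 3.15 ± 0.795 at 20% E2, 2.97 ± 0.918 at 40% E2 and 2.63 ± 0.0827 at 5% E2. The 3 values at 5% E2 rested on 74, 74 and 75 fragments and had a coefficient of variation of 3.14%, below the 11.6% that counting error gives at that level.

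None of the 3 genes passed the threshold (limma adjusted p under 0.05 over the 14781 tested genes) in any comparison of groups. Against vehicle, 5% E2 called 0% of tested genes, 20% E2 0.00677%, 40% E2 0% and the mean of the 3 doses 0.00677%, so that few genes of any kind passed. The genes at an unadjusted limma p under 0.05 numbered 812 (5.49%) for 5% E2 and 867 (5.87%) for 40% E2. For both, voom on the recovered fragments also called 0. For 5% E2 the differences on the log2(FPKM + 1) scale were −0.71 ± 0.22 (SE) for RT1-Da (limma adjusted p = 0.889), −0.54 ± 0.24 for Cd74 (limma adjusted p = 0.889) and −0.23 ± 0.22 for Aif1 (limma adjusted p = 0.906). Their means were 0.534, 0.677 and 0.783 times those of vehicle in FPKM. For 40% E2 the log2 differences were −0.75 ± 0.22 for RT1-Da (limma adjusted p = 0.654), −0.79 ± 0.24 for Cd74 (limma adjusted p = 0.719) and −0.13 ± 0.22 for Aif1 (limma adjusted p = 0.948). These correspond to means of 0.527, 0.594 and 0.882 times vehicle. Across all tested genes, whose median log2 difference was 0.00443 at 5% E2 and 0.00489 at 40% E2, RT1-Da ranked 107th and 102nd by p.

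Separation of the groups was read against all tested genes. At 5% E2, Cd74 and RT1-Da, 2 of the 3, lay below vehicle without overlap, as did 4.54% of all tested genes, and both had an unadjusted limma p under 0.05 with lower values, as did 2.99%. At 40% E2 the same 2 genes lay below vehicle without overlap, against 5.09% of tested genes, and both had an unadjusted p under 0.05 with lower values, against 3.04%. The comparisons share the vehicle libraries. Cd74 and RT1-Da also covary across libraries, so their separations are not independent, and both were chosen with earlier results of these data known. In bulk tissue, fewer cells of a type and less RNA per cell cannot be told apart. The libraries at 5% E2 held 15215750 to 16121001 fragments, within the 13559866 to 16978830 of vehicle, whereas those at 40% E2 held 13281981 to 13801881, and the part of depth in the values was not tested.

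At 20% E2 all 3 genes overlapped vehicle. The log2 differences were −0.08 ± 0.24 (SE) for Cd74 (95% interval −0.62 to 0.46, limma adjusted p = 0.971), −0.13 ± 0.22 for RT1-Da (−0.60 to 0.34, adjusted p = 0.947) and −0.05 ± 0.22 for Aif1 (−0.53 to 0.42, adjusted p = 0.982). Without 20% E2 replicate 3, which had the least Cd74 and RT1-Da of its group, the signs turned for all 3, to 0.12 for Cd74, 0.02 for RT1-Da and 0.03 for Aif1. Pooling the doses gave log2 differences from vehicle of −0.53 ± 0.18 for RT1-Da (limma adjusted p = 0.646), −0.47 ± 0.20 for Cd74 (limma adjusted p = 0.724) and −0.14 ± 0.18 for Aif1 (limma adjusted p = 0.891).

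Between doses, 20% E2 had higher means of the class II pair than either 5% or 40% E2, and no difference passed. Against 5% E2 the log2 differences at 20% E2 were 0.58 ± 0.22 (SE) for RT1-Da (limma adjusted p = 0.975), 0.46 ± 0.24 for Cd74 (limma adjusted p = 0.975) and 0.17 ± 0.22 for Aif1 (limma adjusted p = 0.977). In that comparison 0% of tested genes were called, voom called 0, and 662 (4.48%) had an unadjusted limma p under 0.05. Cd74 and RT1-Da were higher at 20% E2 without overlap, as were 5.31% of tested genes. From 20% to 40% E2 the log2 differences were −0.71 ± 0.24 for Cd74 (limma adjusted p = 1) and −0.63 ± 0.22 for RT1-Da (limma adjusted p = 1), against −0.07 ± 0.22 for Aif1. Those groups overlapped for every gene of the 3, and 0.00677% of tested genes were called, with 429 (2.90%) at an unadjusted limma p under 0.05. Between 5% and 40% E2, where 0.00677% were called, the differences were −0.25 ± 0.24 for Cd74, −0.04 ± 0.22 for RT1-Da and 0.10 ± 0.22 for Aif1.

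**Figure D2:**
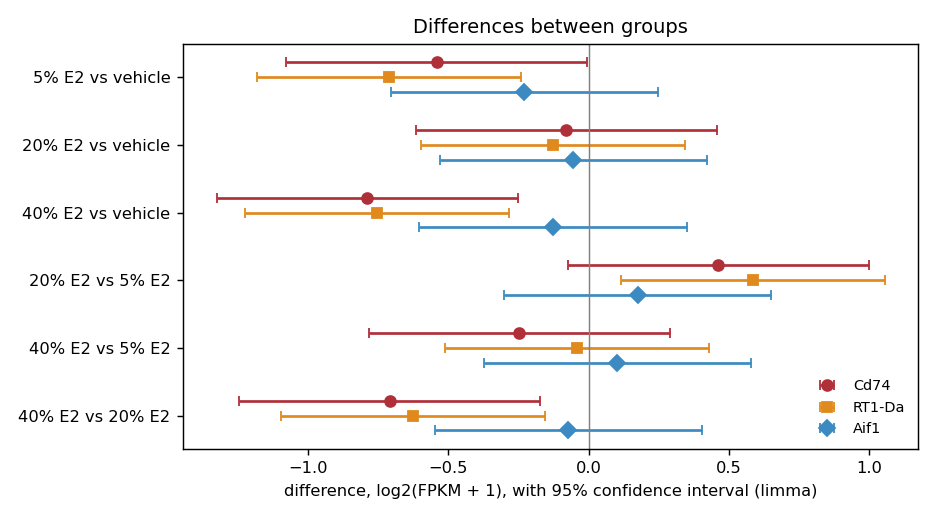
Differences between groups on the log2(FPKM + 1) scale for Cd74, RT1-Da and Aif1, from the limma fit over 12 libraries (points) with 95% confidence intervals (bars). The intervals of Cd74 and RT1-Da lie below 0 at 5% and 40% E2 against vehicle, and every interval of Aif1 crosses 0, but no difference passed after adjustment over 14781 genes.

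For none of the 3 genes were the group means ordered by dose. A linear slope on E2 percent (0, 5, 20 and 40) was −0.0134 ± 0.00692 log2 units per percent for Cd74 (limma adjusted p = 0.813), −0.0107 ± 0.00689 for RT1-Da (limma adjusted p = 0.855) and −0.000669 ± 0.0048 for Aif1 (limma adjusted p = 0.987). For that slope 0% of tested genes were called, voom called 0, and 881 (5.96%) had an unadjusted limma p under 0.05. The F-test of any difference among the 4 groups also called 0%, and voom called 1. In it, 708 genes (4.79%) had an unadjusted limma p under 0.05. RT1-Da had F = 6.56 (limma adjusted p = 0.958, rank 113 by p), Cd74 F = 4.82 (adjusted p = 0.964, rank 327) and Aif1 F = 0.414 (adjusted p = 0.971, rank 11353).

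Taken one gene at a time, differences between groups made up 66.9% of the squared spread of RT1-Da, 58.8% of that of Cd74 and 11.7% of that of Aif1 on the log2(FPKM + 1) scale. An exact permutation test that enumerated the 15400 partitions of the libraries gave unadjusted p = 0.0275, 0.0399 and 0.772. The share of Aif1 was 8.41% to 32.8% without single libraries, highest without vehicle replicate 3 (exact permutation p = 0.402). The p-values of the class II pair did not all stay under 0.05 when single libraries were left out, which leaves 2 libraries in a group. Without any 1 of the 3 vehicle or 3 5% E2 libraries, or without 20% E2 replicate 1 or 2, the exact permutation p of Cd74 was 0.0595 to 0.0849. Without vehicle replicate 1 or 3, 5% E2 replicate 2, 20% E2 replicate 2 or 40% E2 replicate 2, that of RT1-Da was 0.0501 to 0.0596. In those cases the share between groups was 55.3% to 58.4% for Cd74 and 64.5% to 66.8% for RT1-Da. The lowest exact permutation p was 0.0107 for Cd74, without 20% E2 replicate 3, and 0.0109 for RT1-Da, without 40% E2 replicate 3.

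The values were also taken without libraries that stood apart. Vehicle replicate 1 was the deepest library with the fewest genes above 0 (17843, against up to 18836), and it had the most Aif1 of all 12. Without it the 5% E2 differences from vehicle were −0.75 for RT1-Da and −0.52 for Cd74 (limma adjusted p = 0.998 for each), and at 40% E2 they were −0.80 (adjusted p = 0.980) and −0.76 (adjusted p = 0.998). That of Aif1 at 5% E2 was −0.028 without it, against −0.23 with it, and −0.42 without vehicle replicate 3. The library lowest in both Cd74 and RT1-Da was 40% E2 replicate 1. Without it the 40% E2 differences were −0.56 for RT1-Da and −0.47 for Cd74 (limma adjusted p = 0.890 for each). The latter compares with −0.79 when that library is kept. Its absence also moved the difference of Cd74 between 20% and 40% E2 from −0.71 to −0.39 (limma adjusted p = 1) and its slope per E2 percent from −0.0134 to −0.00471. The slope of RT1-Da moved from −0.0107 to −0.00511. That library had 13339670 fragments and 18271 genes above 0, both inside the range of the other 11.

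The class II pair covaried across libraries. Over the 12 libraries the log2(FPKM + 1) values of Cd74 and RT1-Da had a Pearson r of 0.90 (permutation p = 1e-05, the smallest that 100000 resamples can give) and a Spearman rho of 0.94 (permutation p = 6e-05), both two-sided. Among the 14780 other tested genes RT1-Da ranked 1st by r with Cd74, where the median gene had −0.01 and the 99th percentile was 0.64. In turn Cd74 ranked 3rd by r with RT1-Da. Leaving out the 2 libraries farthest from the median of Cd74 (40% E2 replicate 1 and 20% E2 replicate 1) gave r = 0.89 (permutation p = 8e-05, n = 10). Leaving out any single library gave 0.89 to 0.92. These p-values are not adjusted over the 3 pairs, since the genes were chosen with results of these data known.

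Part of that covariation lies between groups and part within them. After the group means were taken out, r was 0.80 (exact permutation p = 0.000772 over 1296 rearrangements within groups). In each group the library lowest in Cd74 was also the lowest in RT1-Da: replicate 2 in vehicle, replicate 3 at 5% E2 and at 20% E2, and replicate 1 at 40% E2. Vehicle replicates 1 and 3 had nearly equal Cd74 (37.6 FPKM in both) with 5.07 and 7.04 FPKM of RT1-Da.

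A fit of every tested gene on the Cd74 level with the groups as a term gave RT1-Da a slope of 0.69 ± 0.20 log2 units per log2 unit of Cd74. It did not pass over all tested genes (limma adjusted p = 1), of which 0.00677% were called, and ranked 37th by p. Without the group term the slope was 0.88 ± 0.13 (limma adjusted p = 0.161), and RT1-Da ranked 1st. Without 40% E2 replicate 1 the slope within groups was 0.89 ± 0.38 and the rank 244th.

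**Figure D3:**
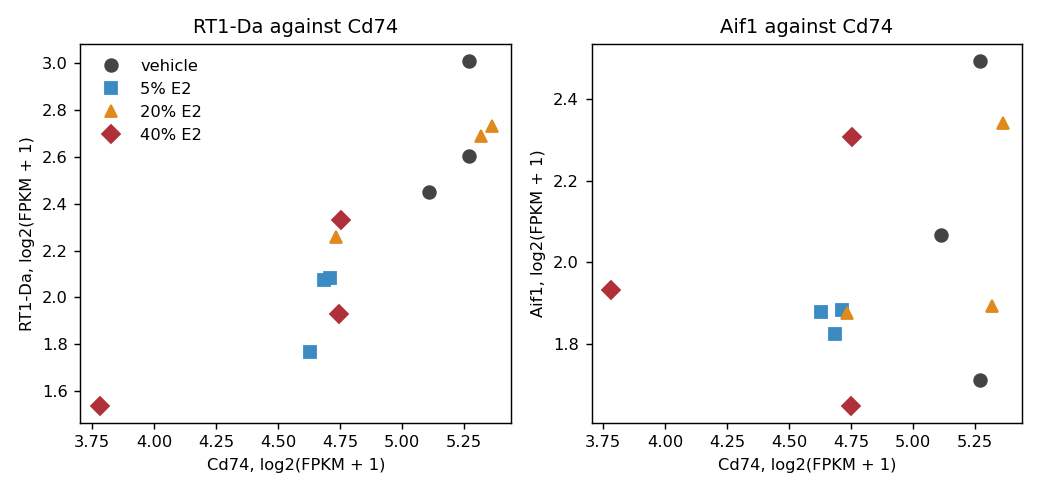
RT1-Da (left) and Aif1 (right) against Cd74 in the 12 libraries, on the log2(FPKM + 1) scale, with symbols by group. RT1-Da follows Cd74 (r = 0.90) and Aif1 does so far less closely (r = 0.31).

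Over all 12 libraries Aif1 followed the class II pair only loosely. Its r was 0.31 with Cd74 (permutation p = 0.329, rho = 0.34, p = 0.275) and 0.31 with RT1-Da (permutation p = 0.326, rho = 0.31, p = 0.318), and 14.4% of tested genes had a higher r with Cd74 than Aif1 did. Without the 2 libraries farthest from the median (40% E2 replicate 1 with 20% E2 replicate 1 for Cd74, and with vehicle replicate 3 for RT1-Da) the values were 0.27 (permutation p = 0.463) and 0.67 (permutation p = 0.0342). Leaving out any single library gave 0.18 to 0.45 with Cd74 and 0.20 to 0.60 with RT1-Da. The latter was highest without vehicle replicate 3 (permutation p = 0.0531). Within groups the r of Aif1 was 0.19 with Cd74 (exact permutation p = 0.746) and 0.12 with RT1-Da (exact permutation p = 0.782). In the fit on the Cd74 level Aif1 had a slope of 0.16 ± 0.29 (95% interval −0.48 to 0.81, rank 7502 by p). That interval includes the slope of RT1-Da, and the difference between the slopes was not tested. Counting error is larger for Aif1 than for the others, and its part in the looser correlation was not tested.

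**Figure D4:**
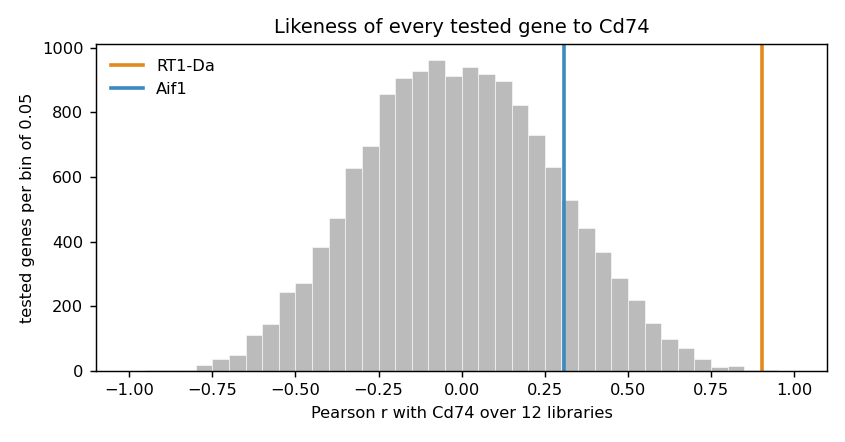
Pearson r with Cd74 over the 12 libraries for the 14780 other tested genes, as numbers of genes per bin of 0.05, with RT1-Da and Aif1 marked by lines. RT1-Da (0.90) lies at the top of the distribution and Aif1 (0.31) inside its upper part.

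Ratios within a library restate the same contrast, since they come from the same values. The larger counting error of Aif1 also enters its ratios, and its part was not tested. The ratio of Cd74 to RT1-Da in FPKM ranged from 5.34 in vehicle replicate 3 to 9.85 in 5% E2 replicate 3, a span of 1.84-fold, while Cd74 itself spanned 3.15-fold and RT1-Da 3.69-fold. By group it was 6.75 ± 1.22 (SD, n = 3) in vehicle, 8.45 ± 1.22 at 5% E2, 6.996 ± 0.213 at 20% E2 and 7.45 ± 1.52 at 40% E2. The 3 libraries of the 20% group had 7.11, 7.13 and 6.75, although the Cd74 level of replicate 3 was well below that of the others. The ratio of Cd74 to Aif1 ranged from 4.53 in 40% E2 replicate 1 to 16.5 in vehicle replicate 3, a span of 3.65-fold, and that of RT1-Da to Aif1 from 0.677 to 3.09 in the same libraries, a span of 4.57-fold.

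**Figure D5:**
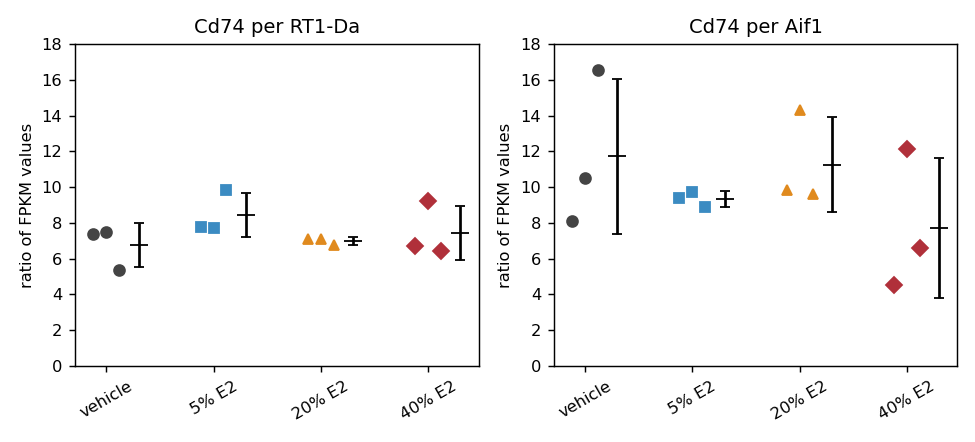
Ratio of the FPKM of Cd74 to that of RT1-Da (left) and of Aif1 (right) in each library, with the group mean and SD (bars). Over all 12 libraries the first ratio spans 1.84-fold and the second 3.65-fold.

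The spread of Cd74 within groups lay mainly in the 20% and 40% groups, with coefficients of variation of 23.1% and 35.3%, against 6.47% in vehicle and 3.02% at 5% E2. Its pooled within-group SD of 0.33 on the log2(FPKM + 1) scale was larger than that of 97.1% of the 2352 tested genes within 0.5 log2 units of its level. Without 40% E2 replicate 1 the SD was 0.20, larger than that of 85.7% of those genes. The corresponding values were 0.29 and 76.1% (of 2568 genes) for RT1-Da and 0.29 and 69.6% (of 2436 genes) for Aif1. In the fit over all 12 libraries, the 95% interval of the 40% E2 difference from vehicle ran from −1.33 to −0.25 for Cd74, from −1.23 to −0.28 for RT1-Da and from −0.60 to 0.35 for Aif1.

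The genes most like the 3 together were sought by their r, over the 12 libraries, with the mean of the 3 standardised levels, to which Cd74 and RT1-Da had an r of 0.90 each and Aif1 0.66. The 2 closest other genes were ENSRNOG00000020634 (r = 0.86) and ENSRNOG00000012536 (r = 0.86). ENSRNOG00000020634 had an r of 0.84 with Cd74, 0.81 with RT1-Da and 0.47 with Aif1, and means of 11.4 ± 1.37 FPKM (SD, n = 3) in vehicle, 8.92 ± 1.03 at 5% E2, 11.01 ± 0.544 at 20% E2 and 9.37 ± 1.63 at 40% E2. The genes most opposite were ENSRNOG00000015491 (r = −0.94) and ENSRNOG00000005446 (r = −0.92). ENSRNOG00000015491 had 4.14 ± 0.417 FPKM in vehicle, 5.03 ± 0.185 at 5% E2, 4.61 ± 0.594 at 20% E2 and 5.35 ± 0.941 at 40% E2. These were picked for their likeness out of 14778 genes, so the values are descriptions.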

How the data were processed

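Each library's deposited file holds FPKM values per gene, a unit taken from the file's name. Tools listed by the submitters' processing notes are fastp, HISAT2, featureCounts, CASAVA and DESeq2, with neither version nor role. Not given in the sources used here: the genome build, the annotation, strand use, and how reads shared by similar MHC genes were counted, which leaves RT1-Da uncertain in level. The table of the whole series was not used. Fragments were recovered as the smallest whole numbers that fit FPKM (21071 of 21071 genes above 0 in at least 2 libraries, largest deviation from a whole number 0.000142). On simulated data 99.98% of 5998 genes were recovered exactly. Counts and intervals cover counting error only.

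Genes with at least 1 FPKM in at least 3 libraries were tested on log2(FPKM + 1), a scale that understates the change of low genes, with limma 3.58.1 (R 4.3.3): a trend fit with robust moderation over all 12 libraries, p-values adjusted by Benjamini-Hochberg over all tested genes. Permutation tests used numpy 2.4.6. In simulated libraries of this depth, 5% E2 was compared with vehicle (14781 genes, 50 changed per size among genes averaging over 30 fragments). The fit found 12% of 1.5-fold and 68% of 2-fold changes, with 3 false calls. Every gene was given the same spread between libraries, which was not set to that of the 3 members. Cd74 varied within groups more than 97.1% of genes near its level, so these rates need not hold for it. None of the 32545 identifiers matched the reference of 47357 genes, so the gene names are those given with the 3 identifiers and the planned marker lists were not analysed. The named genes were these 3 and, by likeness over 12 libraries, the 2 most like and 2 most opposite. The members and lists were chosen with earlier results of these data known. Alternatives were the pseudocount, the filter, the scaling, voom, the groups in the fit, a replicate block and leaving out each library.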

Additional observations from a re-analysis of the deposited data

How the results depend on the processing

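In all 555 refits of single members (limma with another pseudocount, filter, scaling or set of groups, voom on recovered fragments, a replicate block, or leaving out 1 library), no member passed, with a lowest adjusted p of 0.161, and 22 values turned sign. The signs of Cd74 and RT1-Da against vehicle held at 5% and 40% E2. Leaving out 1 library could not turn them, because these groups did not overlap. Dropping a library outside the compared groups, or changing the filter, left the difference between a pair of groups as it was. The alternatives to the single-gene exact test (pseudocount, rescaling by size factors, leaving out libraries) and the spread within groups without single libraries were chosen after seeing the data. Depth limits Aif1 most, at 53 to 145 fragments.

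Counts of called genes moved between 0 and a few. Against vehicle, 20% E2 had 1 called gene, and 0 with a pseudocount of 0.1, no filter, the stricter filter of 5 FPKM, the compared groups alone, and voom with or without sample weights (0 to 2 without single libraries). The mean of the doses had 1, and 0 with a pseudocount of 0.1, no filter, the stricter filter and both voom fits (0 to 1 without single libraries). For 40% E2 the count was 0, and 1 with the compared groups alone (0 to 1), for 5% E2 it was 0 (0 to 1), and for 20% against 5% E2 it was 0 (0 to 5). For 40% against 5% E2 it was 1, and 0 without a filter, with the compared groups alone and with voom (0 to 1). For 40% against 20% E2 it was 1, and 0 without a filter (0 to 2). The test of any difference called 0, and 1 with voom with or without weights (0 to 5), and the slope on Cd74 called 1, and 0 without the group term or with the stricter filter (0 to 2). The cause was not tested.

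With voom and sample weights the log2 differences of Aif1 were 0.021 at 20% and 0.0057 at 40% E2 against vehicle, and its trend was 0.000714. Without single libraries, log2 differences at 20% E2 against vehicle ranged from −0.24 to 0.15 for Aif1, −0.19 to 0.12 for Cd74 and −0.24 to 0.033 for RT1-Da. Those of Aif1 ranged from −0.32 to 0.074 at 40% E2, −0.33 to 0.064 over all doses and −0.25 to 0.084 for 40% against 20% E2, its trend from −0.00447 to 0.00298 and its slope on Cd74 from −0.035 to 0.43. For 40% against 5% E2 the ranges were −0.071 to 0.26 for Aif1, −0.41 to 0.076 for Cd74 and −0.24 to 0.15 for RT1-Da. The share of squares between groups ranged from 55.3% to 69.99% for Cd74 (exact permutation p 0.0107 to 0.0849) from 64.5% to 78.4% for RT1-Da (0.0109 to 0.0596) and from 8.41% to 32.8% for Aif1 (0.402 to 0.878). The correlation of RT1-Da with Aif1 was 0.67 without the 2 farthest libraries, against 0.31 with them. Aif1 did not pass the stricter filter and has no value there.

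Libraries with the same replicate number showed no strong shared deviation. Deviations of the 18 same-numbered pairs from their group means correlated at −0.0544 to 0.0773, and 4 of 12 libraries correlated best with their own number. These values cannot show whether such libraries were handled together. A replicate block left 0 called genes for 20% E2 against vehicle, the mean of the doses and 40% against 20% E2, each with 1 otherwise, and changed no call of a member (adjusted p of 0.828 for RT1-Da and 0.837 for Cd74 at 5% E2, 0.710 and 0.774 at 40% E2).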
